A study of Homo sapiens with 9 samples.

Results

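The genes described here are 37 immediate early and MAPK feedback genes. They were chosen by name for their function, with earlier results of these data known. The table holds 32997 genes. All 37 were found in it, and 33 of them were expressed highly enough to be tested, against 16533 tested genes in all. They were measured by RNA-seq in ES-2, a human ovarian cancer line, in 3 libraries with OTUB2 overexpression, 3 with SNX29P2 overexpression and 3 with an empty vector. The OTUB2 protein removes ubiquitin from its substrates, and SNX29P2 is a pseudogene, derived from the sorting nexin SNX29, that is transcribed. All groups grew in the same serum-containing medium, and the labels name no stimulation, inhibitor or time course. The labels do not give the vector, its promoter, whether a line is a clone or a pool, or whether a group's libraries were grown as separate cultures. P-values therefore measure only the spread between these libraries, which may be technical.

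Immediate early genes are transcribed within minutes of a growth factor or stress signal, without new protein synthesis. Signals through RAS, RAF, MEK and ERK phosphorylate ETS factors of the ternary complex bound with SRF, and SRF and CREB sites drive FOS, JUNB, EGR1 and their relatives. Their products include the FOS and JUN families, whose dimers form the transcription factor AP-1. ERK also induces its own brakes: DUSP phosphatases dephosphorylate MAP kinases, and Sprouty and SPRED proteins damp signalling between receptor and RAF. ES-2 cells are known to carry an activating BRAF mutation, so the pathway is driven in these cells also without added growth factor.

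Promoter sequences are shown for members whose regulatory motifs can be read directly, and for JUNB, the member with the smallest p-value of any test below. RefSeq windows (GRCh38.p14) of 300 bases, reaching from 250 before to 50 after an annotated start, were available for 28 of the 37 members as 36 windows. No window was available for CCND1, DUSP4, DUSP5, EGR3, ETV4, ETV5, FOSL1, KLF10 and MYC. The 250 bases before the start are printed 5′ to 3′ on the strand of the gene. Capitals mark matches to the CArG box, the motif bound by SRF (CC, a run of A or T, then GG), in EGR1, SRF and EGR2, and to the cAMP response element TGACGTCA in DUSP1 and JUND. JUNB has no capitals because none of the motifs searched was in its window.
EGR1: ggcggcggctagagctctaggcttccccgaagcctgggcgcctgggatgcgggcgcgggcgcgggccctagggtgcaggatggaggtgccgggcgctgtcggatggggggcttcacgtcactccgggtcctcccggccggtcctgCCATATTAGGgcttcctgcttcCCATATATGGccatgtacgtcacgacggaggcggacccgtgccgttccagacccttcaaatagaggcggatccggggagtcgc
SRF: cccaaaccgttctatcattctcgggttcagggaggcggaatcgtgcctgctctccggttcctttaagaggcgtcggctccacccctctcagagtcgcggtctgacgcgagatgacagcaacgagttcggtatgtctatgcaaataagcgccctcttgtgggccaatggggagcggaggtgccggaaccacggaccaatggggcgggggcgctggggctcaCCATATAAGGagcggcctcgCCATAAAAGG
EGR2: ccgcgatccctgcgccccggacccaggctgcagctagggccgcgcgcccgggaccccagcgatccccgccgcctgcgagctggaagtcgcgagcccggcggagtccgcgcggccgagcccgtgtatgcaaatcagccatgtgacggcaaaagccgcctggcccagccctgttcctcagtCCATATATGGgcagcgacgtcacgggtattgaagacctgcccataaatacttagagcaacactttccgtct
DUSP1: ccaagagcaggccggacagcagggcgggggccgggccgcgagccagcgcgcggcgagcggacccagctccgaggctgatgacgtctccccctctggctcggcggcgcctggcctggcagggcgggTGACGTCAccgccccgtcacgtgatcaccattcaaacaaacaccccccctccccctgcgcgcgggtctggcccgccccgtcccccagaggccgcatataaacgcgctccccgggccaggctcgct
JUND: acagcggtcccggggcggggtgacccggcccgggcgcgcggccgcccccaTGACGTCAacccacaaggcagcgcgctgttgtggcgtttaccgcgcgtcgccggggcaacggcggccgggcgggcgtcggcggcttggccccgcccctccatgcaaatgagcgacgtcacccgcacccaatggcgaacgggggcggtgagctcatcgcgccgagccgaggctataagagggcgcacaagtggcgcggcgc
JUNB: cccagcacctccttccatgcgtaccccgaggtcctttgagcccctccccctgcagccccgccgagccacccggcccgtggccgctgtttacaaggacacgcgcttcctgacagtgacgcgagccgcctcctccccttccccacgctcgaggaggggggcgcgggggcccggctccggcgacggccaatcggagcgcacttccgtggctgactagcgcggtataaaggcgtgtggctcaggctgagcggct
The EGR1 window lies at chr5:138465229-138465478 (plus strand), that of SRF at chr6:43171019-43171268 (plus), and that of EGR2 at chr10:62816367-62816616 (minus). The DUSP1 window lies at chr5:172771196-172771445 (minus), that of JUND at chr19:18281623-18281872 (minus), and that of JUNB at chr19:12791236-12791485 (plus).

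Counted from the annotated start, the CArG boxes begin at -105 and -83 in EGR1, at -30 and -10 in SRF, and at -71 in EGR2. Searched on both strands, a CArG box was present in 1.29% of 35116 RefSeq promoter windows of the same length. The TGACGTCA element begins at -125 in DUSP1 and at -200 in JUND, and 1.85% of all windows held it. The AP-1 motif TGANTCA, present in 7.71% of windows, was found in FOSL2 and SPRED2. The EGR motif GCGTGGGCG, present in 0.795% of windows, was found in no member window. A match describes letters in these windows and was not measured as a bound site.

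In units of 1000000 reads in genes, depth was 42.4, 48.6 and 39.9 with OTUB2, 45.8, 39.9 and 47.2 with SNX29P2, and 42.7, 38.5 and 41.3 with the vector. OTUB2 stood at 37.6 to 42.6 RPKM (reads per 1000 bases of gene and 1000000 reads in genes) in its own libraries and at 1.04 to 1.58 RPKM elsewhere. SNX29P2 stood at 41.0 to 55.1 RPKM in its own libraries and at no more than 0.0665 RPKM elsewhere. Libraries of a group correlated at 0.971 to 0.981 on the log2 scale across genes and differed by more than counting noise. The epithelial keratins KRT8 and KRT18 were the 2 of 5 epithelial markers above the test's level filter, while EPCAM and KRT19 were near 0 and PAX8, a marker of Müllerian epithelium, was at 0.15 to 0.42 RPKM. Of 6 endothelial markers, CDH5 and TIE1 were present and the defining PECAM1 and VWF were near 0, and of 4 stromal markers only COL1A1 was present. The leukocyte markers, summed over 5 genes, reached 5.43 RPKM in OTUB2 library 1, against 0.165 to 0.312 RPKM in the other 8 libraries. LYZ accounted for 4.22 RPKM of it.

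The members' mean levels over the 9 libraries ran from 0.0114 RPKM for DUSP2 to 406.1 RPKM for FOSL1, and within the AP-1 families most transcripts came from FOSL1 and JUN. FOSL1, which encodes the FOS family protein FRA1, was the most abundant member, with 372.7, 431.4 and 374.8 RPKM with OTUB2, 390.05, 437.3 and 368.1 RPKM with SNX29P2, and 355.6, 504.6 and 420.5 RPKM with the vector. The groups overlapped, and the highest FOSL1 library was vector library 2. FOS, the prototype of the family, had 1.53, 1.35 and 0.650 RPKM with OTUB2, 1.49, 1.64 and 0.694 RPKM with SNX29P2, and 0.709, 1.52 and 0.568 RPKM with the vector. Per kilobase, mean FOSL1 was 360.1 times mean FOS, 293.2 times FOSB and 18.3 times FOSL2.

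Among the JUN genes, whose products pair with the FOS family, JUN was the most abundant. It had 111.9, 129.3 and 120.02 RPKM with OTUB2, 116.5, 129.7 and 115.2 RPKM with SNX29P2, and 121.9, 145.2 and 131 RPKM with the vector. Mean FOSL1 was 3.26 times JUN, 30.2 times JUNB and 77.1 times JUND. The highest of the 9 libraries was 1.30 times the lowest for JUN and 1.42 times for FOSL1, against 2.89 times for FOS and 3.26 times for EGR1. The median of that ratio was 1.53 over the 33 tested members and 1.41 over all tested genes.

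CCND1, which encodes cyclin D1 and carries mitogenic signals into the cell cycle, was the second most abundant member. It had 117, 150.5 and 138.6 RPKM with OTUB2, 123.5, 153.1 and 140.8 RPKM with SNX29P2, and 134.8, 174.2 and 137.3 RPKM with the vector. MYC, the growth regulator, had 71.0, 61.1 and 62.0 RPKM with OTUB2, 71.9, 64.5 and 60.5 RPKM with SNX29P2, and 69.1, 71.9 and 67.8 RPKM with the vector. Both genes overlapped between all groups.

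Of the DUSP, Sprouty and SPRED genes, DUSP1 and DUSP5 had the highest mean levels, and DUSP2 was listed at 0 in 7 of 9 libraries. DUSP1, a nuclear phosphatase for ERK, JNK and p38, averaged 58.3 ± 10.1 RPKM with OTUB2, 54.6 ± 8.81 with SNX29P2 and 57.4 ± 16.9 with the vector (SD, n = 3 each). DUSP5, a nuclear ERK phosphatase, averaged 44.5 ± 0.810, 43.0 ± 1.99 and 45.3 ± 5.88 RPKM in the same groups. DUSP6, the cytoplasmic ERK phosphatase, had 25.04, 25.3 and 25.2 RPKM with OTUB2, 25.3, 22.3 and 24.3 RPKM with SNX29P2, and 29.1, 24.95 and 23.3 RPKM with the vector. The DUSP6 groups overlapped, and DUSP6 varied least within the OTUB2 group. SPRY2 and SPRY4, inhibitors of receptor signalling to RAS, averaged 29.7 and 17.1 RPKM over the 9 libraries, and SPRED1 and SPRED2 13.2 and 14.1 RPKM.

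By mean level over all libraries, 3 members were above 100 RPKM, 21 were between 10 and 100, 7 were between 1 and 10, and 6 were at or below 1. Those 6 were ATF3, a stress-induced partner of AP-1, NR4A1, an orphan nuclear receptor, and EGR2, EGR3, BTG2 and DUSP2. The last 4 did not reach 0.5 RPKM in 3 libraries and were not tested. DUSP2 was read 6 times in 1 OTUB2 library, 3 times in 1 SNX29P2 library and not at all in the vector libraries.

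**Figure D1:**
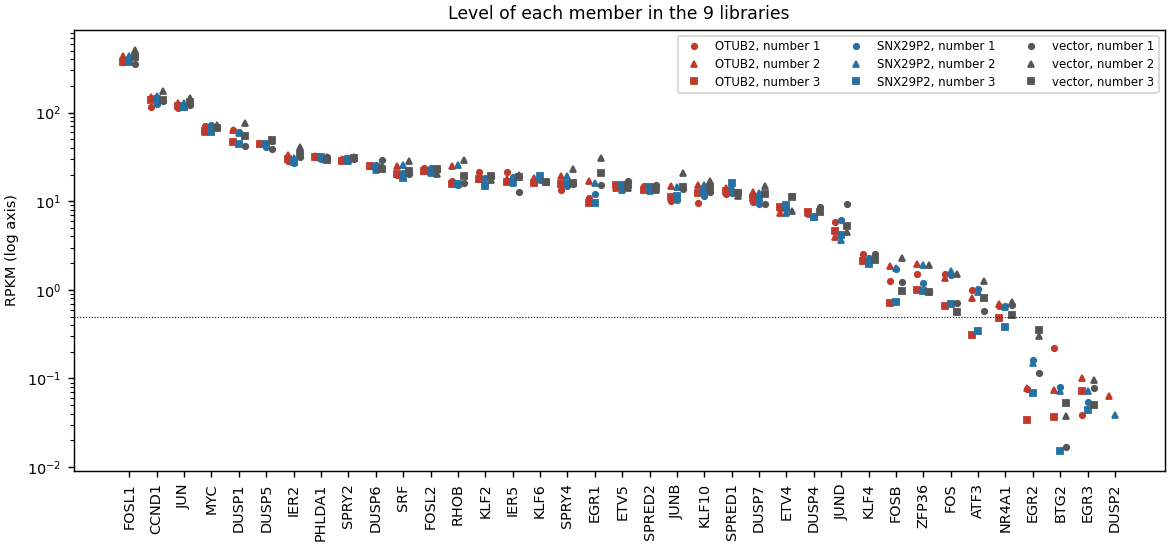
RPKM of all 37 members in each of the 9 libraries, on a log axis, with points for OTUB2, SNX29P2 and vector libraries. Values of 0 (DUSP2 in 7 libraries) cannot be drawn on the log axis, and the dotted line marks the 0.5 RPKM of the level filter. FOSL1, CCND1 and JUN lie above 100 RPKM and EGR2, EGR3, BTG2 and DUSP2 below the line.

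With OTUB2, the immediate early transcription factors EGR1 and JUNB had the lowest fold changes of the tested members against the vector, but no member was called. Calls were made at a Benjamini-Hochberg adjusted p under 0.05 from limma over all 16533 genes, on log2(RPKM + 0.1), and 0.0181% of all tested genes (3 genes) passed. At an unadjusted p under 0.05, 1 of 33 members passed (EGR1), against 6.73% of all tested genes, and limma voom on read numbers recovered from the RPKM values called none. In all, 24 of 33 members were below 0, against 48% of all tested genes, with a median log2 fold change of -0.11 against 0.01 over all tested genes. The members ranged from -0.83 to 0.34.

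SNX29P2 libraries gave a similar picture beside the same vector libraries: again no member was called, against 0.0363% of all tested genes (6 genes). At an unadjusted p under 0.05, 4 of 33 members passed (DUSP4, IER2, EGR1 and KLF6), against 8.21% of all tested genes, and limma voom again called none. In all, 27 of 33 members were below 0, against 46.4% of all tested genes. Their median log2 fold change was -0.11 against 0.01 over all tested genes, and they ranged from -0.79 to 0.44. The OTUB2 and SNX29P2 comparisons share their vector libraries, so a like direction in both is not independent. Since the members were chosen with earlier results of these data known, the shares of members below 0 are a description and were not tested.

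Both member medians moved when single libraries were left out. Without vector library 2, 17 of 33 members were below 0 with OTUB2 and the median was -0.01, and 18 were below 0 with SNX29P2 and the median was -0.04. Without OTUB2 library 3 the OTUB2 median was -0.03 with 19 members below 0. Without vector library 1 the SNX29P2 median was -0.17 with 27 members below 0.

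EGR1 (chr5:138465490-138469315), a zinc finger factor with paired CArG boxes in the window printed above, had the largest difference of any tested member. It had 10.7, 17.0 and 9.45 RPKM with OTUB2, 12.1, 16.1 and 9.49 RPKM with SNX29P2, and 15.3, 30.8 and 20.7 RPKM with the vector. The highest library of each overexpression group lay between the lowest and the second vector library, so the groups overlapped. The log2 fold change was -0.83 with OTUB2 (SE 0.292, 95% interval -1.48 to -0.17, limma adjusted p = 0.691) and -0.79 with SNX29P2 (SE 0.292, -1.45 to -0.14, adjusted p = 0.551). EGR1 was therefore not called in either comparison, and OTUB2 against SNX29P2 gave -0.03 (95% interval -0.69 to 0.62).

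EGR2, a paralogue of EGR1 whose window above also holds a CArG box, was too low to be tested. Its reads were 12, 14 and 5 with OTUB2, 27, 22 and 12 with SNX29P2, and 18, 43 and 54 with the vector. All 3 OTUB2 libraries were below all 3 vector libraries, while SNX29P2 libraries overlapped with both. In a fit without the level filter the log2 fold change with OTUB2 was -1.07 (SE 0.332, limma adjusted p = 0.826). EGR3 showed no such order, with 8, 24 and 14 reads with OTUB2, 12, 14 and 10 with SNX29P2, and 16, 18 and 10 with the vector. SRF, the factor that binds CArG boxes, averaged 21.7 ± 2.92 RPKM with OTUB2, 21.4 ± 3.68 with SNX29P2 and 23.6 ± 4.22 with the vector (SD, n = 3 each).

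JUNB, an AP-1 subunit, had 10.1, 14.9 and 11.2 RPKM with OTUB2, 10.2, 14.6 and 11.4 RPKM with SNX29P2, and 13.6, 20.6 and 14.5 RPKM with the vector. In both overexpression groups only library 2 overlapped with the vector range. The log2 fold changes were -0.42 with OTUB2 (SE 0.196, limma adjusted p = 0.750) and -0.42 with SNX29P2 (adjusted p = 0.630). IER2, a nuclear protein of the immediate early response, had 28.7, 32.99 and 30.1 RPKM with OTUB2, 26.7, 31.1 and 27.7 RPKM with SNX29P2, and 31.3, 40.8 and 34.2 RPKM with the vector. All SNX29P2 libraries lay below all vector libraries for IER2, and the log2 fold change came to -0.31 (SE 0.105, limma adjusted p = 0.541), and with OTUB2 it was -0.20 (adjusted p = 0.780).

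JUND, an AP-1 subunit with a cAMP response element in the window above, had 5.85, 3.94 and 4.597 RPKM with OTUB2, 6.14, 3.68 and 4.16 RPKM with SNX29P2, and 9.31, 4.54 and 5.19 RPKM with the vector. Its log2 fold changes of -0.35 with OTUB2 and -0.40 with SNX29P2 had standard errors of 0.276, and the groups overlapped. FOS had the highest fold changes of the tested members, 0.34 with OTUB2 and 0.44 with SNX29P2, each with a standard error of 0.431 (limma adjusted p = 0.936 and 0.832). JUN was at -0.14 in both comparisons, and FOSL1 at -0.11 with OTUB2 and -0.09 with SNX29P2. In all, 6 of the 8 members that encode AP-1 subunits or ATF3 were below 0 in each comparison with the vector.

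**Figure D2:**
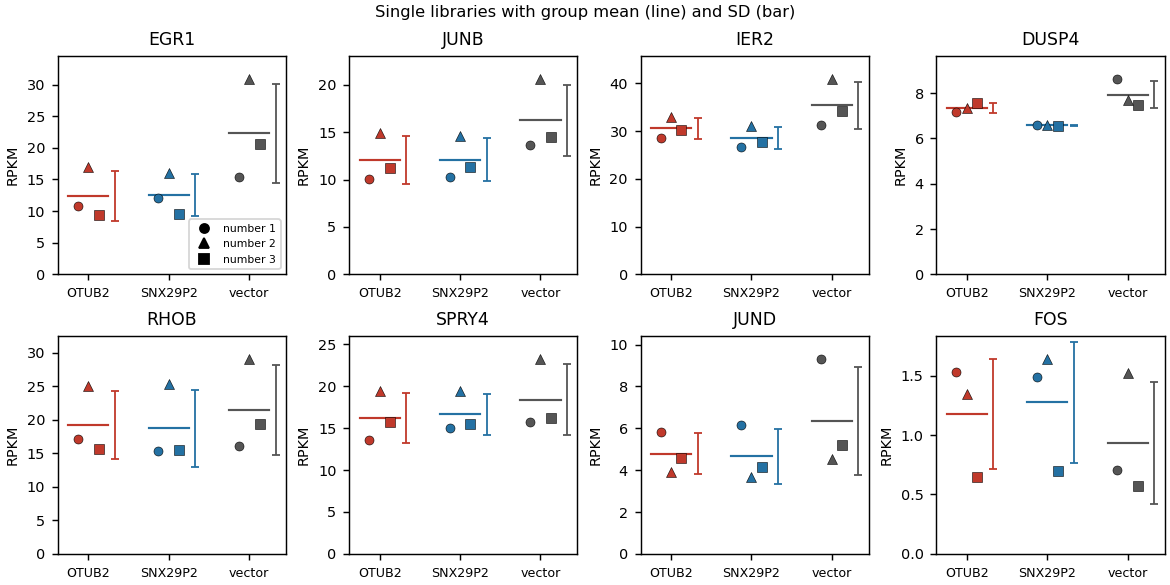
RPKM by library for selected members, in OTUB2, SNX29P2 and vector libraries from left to right, with circles, triangles and squares for replicate numbers 1, 2 and 3, a horizontal line at the group mean and a bar of ± 1 SD beside it. For EGR1 the vector libraries reach 30.8 RPKM, against at most 17.0 RPKM with OTUB2 and 16.1 RPKM with SNX29P2, and the groups still overlap.

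Among the feedback genes, DUSP4, a nuclear phosphatase of ERK and JNK, stood out in the fit with group as its only term. There it had the smallest unadjusted p of any member against the vector. It had 7.15, 7.33 and 7.56 RPKM with OTUB2, 6.60, 6.59 and 6.55 RPKM with SNX29P2, and 8.60, 7.71 and 7.48 RPKM with the vector. The SNX29P2 libraries lay close together, below all libraries of both other groups. Its log2 fold change was -0.26 with SNX29P2 (SE 0.0734, 95% interval -0.43 to -0.10, limma adjusted p = 0.496) and -0.11 with OTUB2 (adjusted p = 0.847). All 5 tested DUSP members were below 0 with SNX29P2, from -0.26 to -0.04, and 4 of 5 with OTUB2, from -0.11 to 0.05.

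No other feedback member passed an unadjusted p under 0.05 in either comparison with the vector. DUSP6 was at -0.03 with OTUB2 and -0.10 with SNX29P2. SPRY4 had 13.6, 19.4 and 15.8 RPKM with OTUB2, 15.0, 19.4 and 15.5 RPKM with SNX29P2, and 15.7, 23.2 and 16.2 RPKM with the vector, with log2 fold changes of -0.17 and -0.13 against the vector. SPRY2 lay lower in all libraries of both overexpression groups than in any vector library, at 30.3, 29.3 and 28.2 RPKM with OTUB2, 28.7, 28.1 and 30.1 RPKM with SNX29P2, and 30.3, 31.6 and 30.8 RPKM with the vector, but by a small margin. SPRED1, which recruits neurofibromin to RAS, was at 0.09 with OTUB2 and 0.20 with SNX29P2. Groups without overlap were 1 of 33 members with OTUB2 (SPRY2), against 10.8% of all tested genes, and 4 of 33 with SNX29P2 (IER2, DUSP4, SPRY2 and KLF6), against 11.7%.

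The ETS factors ETV4 and ETV5 are transcribed in response to ERK. ETV4 had 8.22, 7.41 and 8.67 RPKM with OTUB2, 8.25, 7.40 and 9.11 RPKM with SNX29P2, and 11.6, 7.76 and 11.2 RPKM with the vector. Vector libraries 1 and 3 were the highest and vector library 2 lay among the overexpression libraries. The log2 fold changes of ETV4 were -0.31 with OTUB2 (SE 0.150, limma adjusted p = 0.771) and -0.28 with SNX29P2 (adjusted p = 0.672). ETV5 averaged 14.8 ± 0.582 RPKM with OTUB2, 14.2 ± 1.03 with SNX29P2 and 15.4 ± 1.503 with the vector (SD, n = 3 each).

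Among the Krüppel-like factors, KLF6 had 16.6, 18.2 and 15.9 RPKM with OTUB2, 17.2, 18.5 and 19.0 RPKM with SNX29P2, and 16.3, 16.3 and 16.3 RPKM with the vector. SNX29P2 libraries were all above the vector libraries, and the log2 fold change came to 0.16 (SE 0.0701, limma adjusted p = 0.606). KLF2, a factor known from endothelium and lymphocytes, had 21.4, 18.0 and 17.9 RPKM with OTUB2, 18.3, 16.1 and 14.8 RPKM with SNX29P2, and 18.5, 17.3 and 19.4 RPKM with the vector. KLF10, induced by TGF-beta, was at -0.25 with OTUB2 and -0.15 with SNX29P2, and KLF4, a regulator of differentiation, at -0.00 and -0.16. MYC was at -0.11 and -0.09, and CCND1 at -0.13 and -0.09, in the same order of comparisons.

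BTG2, an antiproliferative gene, had 26, 10 and 4 reads with OTUB2, 10, 8 and 2 with SNX29P2, and 2, 4 and 6 with the vector. OTUB2 library 1, the library with leukocyte marker reads, was the highest of the 9 for both BTG2 and KLF2, and its part in their OTUB2 values was not tested. Without that library, 27 of 33 members were below 0 with OTUB2, the median was -0.06, and no member passed an unadjusted p under 0.05.

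**Figure D3:**
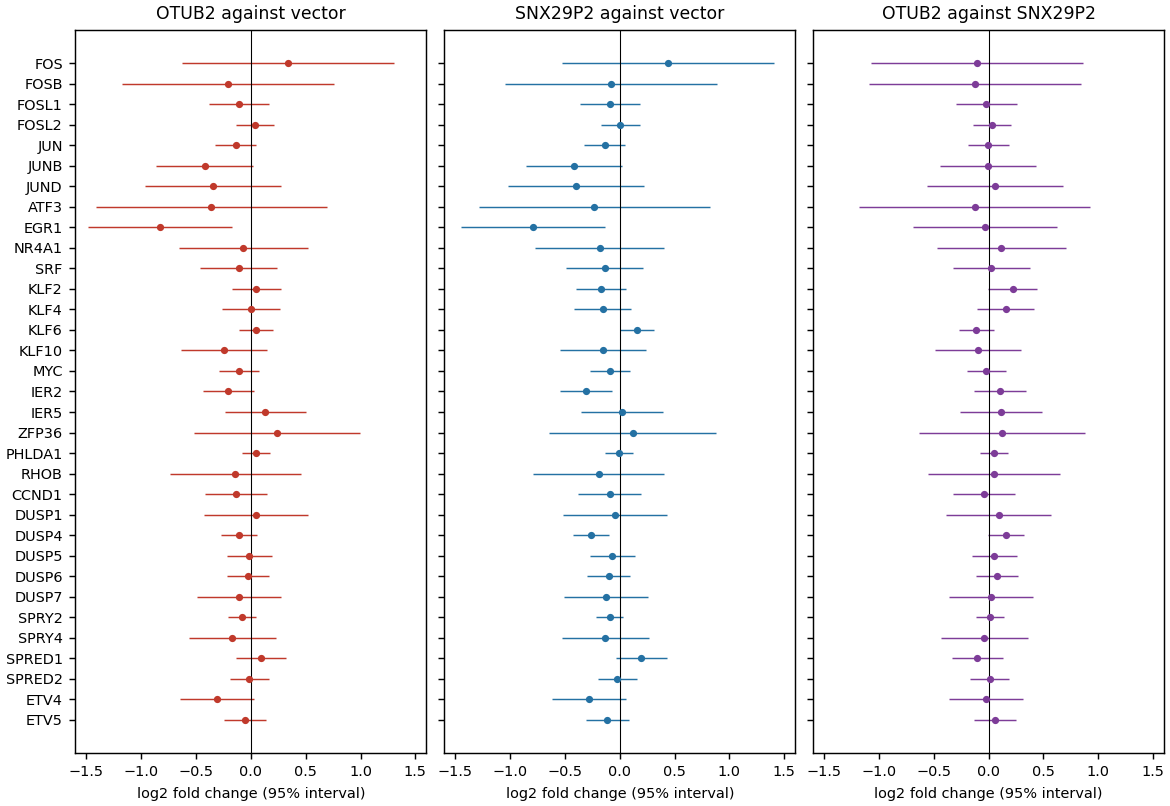
Log2 fold change of each tested member with its 95% interval from limma, for both comparisons with the vector and for OTUB2 against SNX29P2. The interval includes 0 for 32 of 33 members with OTUB2, 29 with SNX29P2 and 33 between the overexpression groups, and EGR1 lies farthest to the left in both comparisons with the vector.

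OTUB2 against SNX29P2, which asks whether the overexpression groups differ from each other, showed the smallest member differences. No member was called by limma, against 0.0242% of all tested genes (4 genes), and none passed an unadjusted p under 0.05, against 2.43% of all tested genes. Of the 33 members, 14 were below 0, against 51.4% of all tested genes. They ranged from -0.13 to 0.22 with a median of 0.02, and limma voom called none either. DUSP4 was the member without overlap (against 8.35% of all tested genes), at 7.35 ± 0.208 RPKM with OTUB2 and 6.58 ± 0.0268 with SNX29P2 (SD, n = 3 each), a log2 fold change of 0.16 (95% interval -0.01 to 0.32, limma adjusted p = 1.00). KLF2 had the largest difference, 0.22 (95% interval -0.01 to 0.44), and all 5 tested DUSP members were above 0.

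These intervals set what the fit with group as its only term can show. The median standard error of a member's log2 fold change was 0.127, close to the 0.126 over all tested genes, and the median 95% interval reached 0.285 to each side. The interval stayed inside a change of 1 log2 unit in either direction for 29 of 33 members for the OTUB2 effect, 28 for the SNX29P2 effect and 30 for the contrast of OTUB2 with SNX29P2. The 95% interval with OTUB2 was -0.63 to 1.30 for FOS and -0.11 to 0.20 for KLF6. With the replicate number as a block, the median standard error was 0.0734 for members and 0.0989 over all tested genes. The intervals with OTUB2 were then -0.20 to 0.88 for FOS and -0.10 to 0.19 for KLF6. For EGR1 the block gave -1.16 to -0.50 (limma adjusted p = 0.184) and for JUNB -0.54 to -0.30 (adjusted p = 0.0849), and neither was called.

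The replicate number gave the only called members. Each group has libraries numbered 1, 2 and 3 in the labels, which do not say what the number stands for. The limma test of the number, with group kept in the model, asks for any difference among the 3 numbers, and its adjusted p, called below the p of the number test, does not single out number 2. By it, JUNB and RHOB were called, 2 of 33 members, against 0.284% of all tested genes (47 genes). Unadjusted, 16 of 33 members passed a p under 0.05, against 22.7% of all tested genes. Number 2 was the highest library in all 3 groups for 13 members, against 14.2% of all tested genes, and these were JUNB, RHOB, SPRY4, KLF10, DUSP7, FOSB, ZFP36, SRF, CCND1, EGR1, IER2, JUN and FOSL1.

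RHOB, a small GTPase of endosomes and the actin cytoskeleton and an immediate early gene, is at chr2:20447074-20449445. It had 17.1, 25.01 and 15.6 RPKM with OTUB2, 15.3, 25.4 and 15.5 RPKM with SNX29P2, and 16.1, 29.04 and 19.3 RPKM with the vector. Library 2 was the highest of each group. Number 2 minus the mean of numbers 1 and 3 was 0.68 on the log2 scale (SE 0.0671), and the limma number test had an adjusted p = 0.0482. JUNB, at chr19:12791496-12793315 and with its values given above, was 0.49 higher in number 2 (SE 0.0435), with an adjusted p = 0.0482 in the number test, and library 2 was again highest in each group.

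Number 2 minus the mean of 1 and 3 was 0.43 for SPRY4, 0.37 for KLF10 and 0.70 for EGR1. In the limma number test the adjusted p was 0.0569 for SPRY4, 0.0570 for KLF10 and 0.0809 for EGR1. The difference was 0.85 for FOSB, 0.79 for ZFP36, whose protein promotes decay of AU-rich mRNAs, and 0.72 for FOS, all below 3 RPKM in every library. CCND1 and FOSL1 were each at 0.27, IER2 at 0.23 and JUN at 0.17. None of these 10 was called.

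Not every member had this pattern. JUND, ETV4 and ETV5 were lowest in number 2 of all 3 groups, against 10.4% of all tested genes, with differences of -0.48 for JUND and -0.32 for ETV4. JUND had an adjusted p = 0.0570 in the limma number test. SPRY2, MYC and DUSP6 were at -0.00, -0.03 and -0.07. By role, number 2 was above the mean of 1 and 3 in 6 of 8 AP-1 members, in all 3 tested members of the EGR, NR4A and SRF group, in 6 of 6 other tested immediate early genes including IER2, RHOB and CCND1, in 2 of 5 KLF and MYC members with a median of -0.03, in 3 of 5 DUSP members, in 2 of 4 Sprouty and SPRED members and in neither ETV gene. The median over the 33 members was 0.17, against 0.01 over all tested genes. The share of all tested genes with number 2 above the mean of 1 and 3 was not counted. The counts by role, and those of genes higher or lower in number 2 given below, are therefore a description only.

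**Figure D4:**
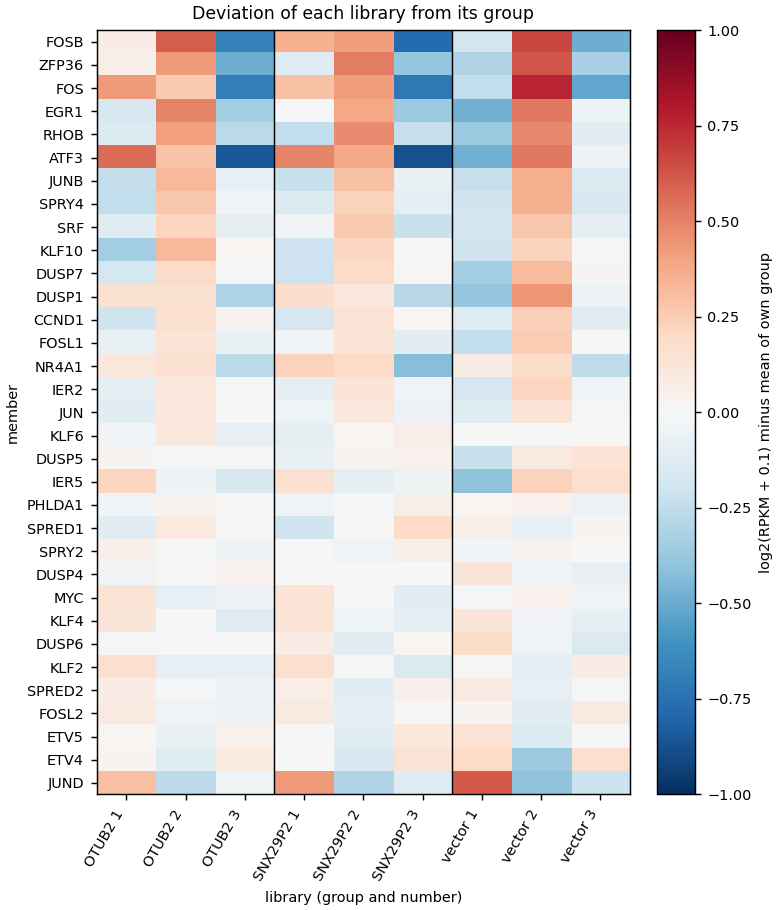
Deviation of each tested member from its group mean on the log2 scale, for libraries 1, 2 and 3 of the OTUB2, SNX29P2 and vector groups. The median deviation of members in library 2 is 0.11 with OTUB2, 0.11 with SNX29P2 and 0.18 with the vector, and in library 3 it is -0.06, -0.06 and -0.05.

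The calls by number depended on single libraries. Without vector library 1, 15 members and 1069 genes were called by number, and without any other library no member and at most 2 genes were called. In vector library 1 the 10 heat shock genes summed to 1518 RPKM, against 2903 RPKM in OTUB2 library 1 and 2843 RPKM in SNX29P2 library 1. The libraries numbered 2 lay between these, at 2090 to 2142 RPKM, as did those numbered 3, at 1920 to 2185 RPKM. The median member deviation of vector library 1 was -0.13, against 0.02 in OTUB2 library 1 and -0.01 in SNX29P2 library 1. Library 2 was the deepest of the OTUB2 libraries and the shallowest of the SNX29P2 and vector libraries, and the part of depth was not tested.

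Genes around the members in the pathway gave a background for these values. The counts in this and the following paragraphs stand beside these shares over all tested genes. At an unadjusted p under 0.05, 6.73% passed with OTUB2, 8.21% with SNX29P2 and 22.7% by number. Below 0 were 48% with OTUB2 and 46.4% with SNX29P2, and number 2 was highest in all 3 groups for 14.2%. Of 28 other tested immediate early genes, none was called (3 with OTUB2 and 2 with SNX29P2 at an unadjusted p under 0.05), 18 were below 0 with OTUB2 and 17 with SNX29P2, and the medians were -0.06 and -0.12. CSRNP1, an immediate early nuclear protein, had 6.80, 8.12 and 6.45 RPKM with OTUB2, 6.80, 7.21 and 6.08 RPKM with SNX29P2, and 8.30, 10.0 and 8.93 RPKM with the vector. All libraries of both overexpression groups were below all vector libraries, with log2 fold changes of -0.35 (limma adjusted p = 0.663) and -0.43 (adjusted p = 0.488). By number, 19 of the 28 were higher in number 2, 7 had number 2 highest in all 3 groups, and none was called (18 unadjusted). BHLHE40, a transcriptional repressor, was 0.51 higher in number 2, with an adjusted p = 0.0596 in the limma number test.

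The kinases and adaptors that carry the signal, 32 tested genes from receptors to ERK and RSK, were balanced. 18 were below 0 with OTUB2 and 14 with SNX29P2, none was called (2 and 3 unadjusted), and the medians were -0.01 and 0.01. NRAS, which encodes a RAS GTPase, had 27.1, 30.3 and 29.7 RPKM with OTUB2, 28.8, 33.2 and 32.97 RPKM with SNX29P2, and 26.4, 26.5 and 25.3 RPKM with the vector. All libraries of both overexpression groups were above the vector libraries, with a log2 difference of 0.28 with SNX29P2 (limma adjusted p = 0.488). RPS6KA2, a kinase of the RSK family downstream of ERK, was at -0.36 with OTUB2 and -0.40 with SNX29P2, and FGFR1, a growth factor receptor, at -0.23 with OTUB2.

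The other bZIP partners of AP-1, 7 tested genes, had 2 below 0 in each comparison with the vector, and none was called (1 and 1 unadjusted). CREM, a factor that binds cAMP response elements, was the gene that passed unadjusted in both, at 0.24 with OTUB2 and 0.29 with SNX29P2.

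Of 25 other tested genes known to respond to ERK, 18 were below 0 with OTUB2 and 16 with SNX29P2, and none was called (2 and 4 unadjusted). PHLDA2, an imprinted growth regulator, had 13.8, 18.6 and 14.4 RPKM with OTUB2, 13.2, 16.7 and 14.3 RPKM with SNX29P2, and 19.4, 30.2 and 17.7 RPKM with the vector, with log2 fold changes of -0.49 with OTUB2 and -0.57 with SNX29P2. All SNX29P2 libraries were below all vector libraries, and OTUB2 overlapped with the vector through 1 library of each.

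IL11, a cytokine of the IL-6 family, was the 1 gene of these 25 called by number. It had 9.70, 21.6 and 9.94 RPKM with OTUB2, 8.54, 19.7 and 10.1 RPKM with SNX29P2, and 13.8, 29.2 and 13.6 RPKM with the vector. Library 2 was the highest of each group by a wide margin, and number 2 minus the mean of 1 and 3 was 1.10 on the log2 scale (SE 0.0542). Its adjusted p in the limma number test was 0.00432. Of 14 tested cytoskeletal targets of SRF and its cofactor MRTF, 12 were higher in number 2 and none was called (7 unadjusted), with TPM1, a tropomyosin, at 0.45 and MYH9, nonmuscle myosin heavy chain, at 0.22. COL1A1, the collagen counted above among stromal markers, was 0.37 higher in number 2, with an adjusted p = 0.0570 in the limma number test. With OTUB2, 10 of the 14 cytoskeletal genes were below 0, and with SNX29P2 13 were, and none was called (2 and 1 unadjusted). CNN1, calponin, was at -0.53 with OTUB2 and -0.61 with SNX29P2, on levels of 0.893 to 1.59 RPKM.

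Genes of 2 other programmes had fold changes of the other sign. All 10 heat shock genes were above 0 against the vector in both comparisons, with medians of 0.28 with OTUB2 and 0.34 with SNX29P2, and none was called (2 and 5 of 10 at an unadjusted p under 0.05). HSP90AA1, a cytosolic chaperone, was at 0.28 with OTUB2 and 0.34 with SNX29P2. Summed heat shock levels stood farthest apart in the libraries numbered 1, at 2903 RPKM with OTUB2, 2843 with SNX29P2 and 1518 with the vector. In the same order they were 2111, 2142 and 2090 RPKM in number 2, and 2080, 2185 and 1920 RPKM in number 3. All 18 genes of the G2 and M phases were above 0 in both comparisons, with medians of 0.30 and 0.29, and none was called (3 and 6 of 18 unadjusted). MKI67, the proliferation marker, had 39.4, 45.3 and 45.5 RPKM with OTUB2, 39.7, 47.5 and 45.4 RPKM with SNX29P2, and 33.2, 29.9 and 41.2 RPKM with the vector. Summed G2 and M levels were 1019.7 to 1147 RPKM with OTUB2, 1025 to 1129 RPKM with SNX29P2, and 908, 698 and 1155 RPKM with the vector, so that vector library 2, the highest for EGR1, JUNB and FOSL1, was the lowest here. In the fit by number, 17 of these 18 were lower in number 2, and 2 of 18 passed an unadjusted p under 0.05, against 22.7% of all tested genes. Library 2 had the lowest G2 and M sum only in the vector group, and stood at 1071 RPKM with OTUB2 and 1066 RPKM with SNX29P2. The part of both programmes in the member values was not tested. The 8 transcripts listed as signs of RNA quality, mitochondrially encoded mRNAs with the nuclear RNAs MALAT1 and NEAT1, summed to 24221 to 25451 RPKM with OTUB2, 25235 to 26029 RPKM with SNX29P2 and 27539.5 to 29084 RPKM with the vector. These sums did not overlap between either overexpression group and the vector, and none of the 8 was called (4 and 3 unadjusted). Their part was not tested either.

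Of the 37 members, 9 share exon positions with another gene, 8 of them on the opposite strand. They are JUNB, IER2, CCND1, DUSP6, ETV4, NR4A1, PHLDA1 and EGR3 on the opposite strand and ETV5 on the same strand. Whether the counting used strand is not given in the sources used here, so reads in the shared positions cannot be assigned with certainty. For ETV5, strand would not separate them. How large the shared part of each member is was not measured.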

How the data were processed

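The authors deposited 1 table of RPKM values with gene positions and lengths, per the file headers, for 9 ES-2 libraries and 32997 genes. GRCh38 is named in the submitters' processing notes. No aligner, counting program, strand setting or annotation release is named in the sources used. Groups follow the genotype in the labels. All values under 1000 reads (100%) were a whole number of reads, to 0.05 reads, once divided by the worth of a single read, which gave the depth. The read numbers of BTG2 and LYZ were even in all 9 libraries. Whether each recovered read stands for a separate RNA fragment is not known, so read numbers and depth may overstate independent fragments. Gene names turned into dates (25) were left unnamed, and no member was among them.

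The level filter kept genes that reached 0.5 RPKM in 3 or more libraries. The model was limma 3.58.1 in R 4.3.3 on log2(RPKM + 0.1), with a variance trend and no term but group, and used all 9 libraries. Changes of low genes are understated on this scale. P-values were adjusted by Benjamini-Hochberg over all 16533 genes and called under 0.05. The replicate number was tested, for any difference among its 3 levels, with group in the model. A count test had been listed for a table of counts only. The programs were tested on simulated data.

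The members and lists were chosen with earlier results of these data known. Of 178 entries in 12 other lists, 171 matched and 147 were tested. Set to be named were FOS, JUN, EGR1, MYC, DUSP6 and CCND1, called members, the 5 members with the smallest p in each test and the 3 with the highest mean. From each other list the rule took up to 3 called genes or otherwise the 2 with the smallest p in each test. Only part of these list genes are given here, and CYR61, LIF, PLAU and BAG3 are among those left out. SPRY2 and other members given by values were named after their values were seen. Promoters were RefSeq windows matched by symbol. Alternatives were other pseudocounts, filters, scalings, variance fits and sets of libraries. Both limma voom, run on reads recovered from RPKM, and the number test with libraries left out were chosen after seeing the data. Software was python 3.11.15 with numpy 2.4.6, pandas 2.3.3 and matplotlib 3.10.9.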

Additional observations from a re-analysis of the deposited data

How the results depend on the processing

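No member was called in any comparison of groups under any of 20 settings. For JUNB and RHOB, the members called by number, number 2 stayed above the mean of 1 and 3 under all 17 settings run. The direction stayed the same under every setting run for 15 of 33 members in OTUB2 against vector, 17 in SNX29P2 against vector and 11 in OTUB2 against SNX29P2, and for 28 of 33 members in number 2 minus the mean of 1 and 3. Settings run were 20 for groups and 17 for the number, less 1 for members that did not reach the filter of 1 RPKM in 6 libraries. Some of the settings for groups cannot change a member's fold change and so do not test its direction. They are the robust variance fit, no filter, the replicate block, and the fit of only both compared groups. Leaving out a library of the group outside the comparison is another. EGR1 ranged from -1.08 to -0.57 with OTUB2 (limma adjusted p 0.184 to 0.999) and from -1.03 to -0.53 with SNX29P2 (0.157 to 0.998). Member medians with 1 library left out ranged from -0.11 to -0.01 with OTUB2, from -0.17 to -0.04 with SNX29P2, and from -0.03 to 0.07 for OTUB2 against SNX29P2. Genes called with OTUB2 were 3, but 7 without the filter, 1 without the libraries numbered 2, 1 with only both compared groups in the fit, and 1 to 7 with 1 library left out. With SNX29P2 they were 6, but 1 at 1 RPKM in 6 libraries, 0 without the libraries numbered 2, 10 with limma voom, and 1 to 7 with 1 library left out. For OTUB2 against SNX29P2 they were 4, but 1 at 1 RPKM in 6 libraries, 1 without the libraries numbered 2, and 1 to 5 with 1 library left out. By number, 2 members and 47 genes became 0 and 2 without the filter, 5 and 144 at 1 RPKM in 6 libraries, 15 and 907 with limma voom, and 1 member with median-of-ratios scaling. With 1 library left out they ranged from 0 to 15 members and from 0 to 1069 genes. The causes were not tested. The planned tests on counts were not run, since the table holds RPKM. Depth limits EGR2, EGR3, BTG2 and DUSP2, and the spread of 3 libraries limits the rest.

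With the replicate number as a block, 4, 9 and 4 genes were called with OTUB2, with SNX29P2 and between both, and 0 members in each. At an unadjusted p under 0.05, 8, 9 and 1 members passed, against 11.7, 13.7 and 4.71% of all tested genes, and JUNB had the limma adjusted p = 0.0849 with OTUB2 and 0.0724 with SNX29P2. The main fit did not use the numbers as a pairing, and the labels do not say what they stand for. Deviations from group means of same-numbered libraries correlated at -0.0178 to 0.270 over 9 pairs, and 2 of the 9 were not above 0.1. Those of differently numbered libraries correlated at -0.230 to 0.0502. As a hint from the data and not the design, 7 of 9 libraries correlated best with their own number in both other groups.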
